A study of Mus musculus with 6 samples.

Results

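The 10 genes described here encode the mouse NF-κB subunits (*Nfkb1*, *Nfkb2*, *Rel*, *Rela* and *Relb*) and a set of their feedback inhibitors (*Nfkbia*, *Nfkbib*, *Nfkbie*, *Nfkbiz* and *Tnfaip3*). They were chosen by name, with earlier results of these data known. All 10 are among the 51499 loci of the count table and among the 14499 loci that had enough counts to be tested. WT mouse embryonic fibroblasts (MEFs) received a control siRNA (Scr siRNA) or an siRNA against *Yme1l* (Yme1l siRNA). RNA was sequenced from 3 cultures of each group at 72 h after transfection. *Yme1l* encodes a protease of the inner mitochondrial membrane, and the study asked whether its loss leads to innate immune signalling. In both groups the labels call the cells WT. The methods describe WT MEFs as a line from an expanded clone that kept the loxP-flanked *Yme1l* alleles (Yme1l loxP/loxP) after transduction with Cre recombinase. The labels name 3T3 immortalization and the methods name SV40 large T antigen, so whether these cultures are of that line is not settled. Whether 1 or several siRNAs against *Yme1l* were used is not given in the sources used here.

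NF-κB is a family of transcription factors that act as pairs of subunits. In resting cells the pairs are held in the cytosol by IκB proteins. Signals from cytokine receptors, Toll-like receptors and DNA sensing lead to the phosphorylation of IκB by a kinase complex and to its degradation, and the freed pairs enter the nucleus. Among the genes that they induce are several of their own inhibitors and subunits, so that the RNA of *Nfkbia* and *Tnfaip3* is widely read as a sign of recent NF-κB activity. Fibroblasts respond in this way to TNF, to interleukin 1 and to nucleic acids.

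The libraries held between 37260605 and 45205207 counts. Levels are in CPM, read counts relative to library sizes that were scaled by the TMM method, and errors are SD over the 3 cultures unless a standard error (SE) is named. A gene is said to have risen or fallen where edgeR's quasi-likelihood test with Benjamini-Hochberg adjustment over all 14499 loci gave an adjusted p under 0.05. *Yme1l1*, the official symbol of the targeted gene, was measured at 170.5, 171.3 and 170.6 CPM in the Scr cultures and at 31.6, 23.4 and 45.0 CPM in the Yme1l siRNA cultures, a log2 difference of -2.36 (SE 0.20, adjusted p = 3.87e-05). Of the fibroblast markers, 5 of 6 tested fell (*Col1a1*, *Col1a2*, *Col3a1*, *Pdgfrb* and *Fn1*) and *Vim* gave no call. Of all loci tested, 29.6% fell and 28.4% rose. The summed level of all 7 fibroblast markers was between 32950 and 40020 CPM in Scr cultures and between 17640 and 22050 CPM in Yme1l siRNA cultures, and *Thy1* had at most 1 count in any library. The macrophage markers *Ptprc*, *Adgre1* and *Itgam* were at or near 0, *Lyz2* was at 1.34 and 1.05 CPM without a call, and *Csf1r* rose from 123 to 205 CPM. The summed level of the 5 genes was 110 to 135 CPM in Scr cultures and 184 to 223 CPM in Yme1l siRNA cultures. Endothelial markers summed to 3.79 to 4.08 CPM and 5.68 to 7.81 CPM, with *Kdr* and *Tek* higher, and the 3 epithelial markers to 0.0693 to 0.166 CPM and 0.190 to 0.529 CPM. The part of these differences in the results was not tested, and in bulk RNA fewer cells of a type cannot be told apart from less RNA per cell.

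κB sites, the DNA sequences bound by NF-κB, lie in the promoters of several of these genes. The promoter, taken as the 250 bases before to 50 after a start site in RefSeq (GRCm38.p6), was at hand for 7 of the 10 genes, in 10 windows, and for *Nfkb1*, *Relb* and *Nfkbiz* it was not. The κB consensus, 10 bases long and searched on both strands, matched in 5 of the 7 genes, *Nfkbia*, *Tnfaip3*, *Nfkb2*, *Rel* and *Nfkbie*. Counted by window, 7 of the 10 windows held a match, beside 8.46% of 32851 promoters of the same length. The following 30-base stretches show 1 match for each of the 5 genes, so that the letters can be set beside the RNA values. They are written 5′ to 3′ along the strand of the gene, with the match in capitals.
Nfkbia, chr12:55492657-55492686, minus strand: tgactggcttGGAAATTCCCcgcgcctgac
Tnfaip3, chr10:19015403-19015432, minus strand: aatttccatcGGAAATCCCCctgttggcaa
Nfkb2, chr19:46304688-46304717, plus strand: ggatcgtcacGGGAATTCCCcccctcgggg
Rel, chr11:23771042-23771071, minus strand: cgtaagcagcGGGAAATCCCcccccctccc
Nfkbie, chr17:45555584-45555613, plus strand: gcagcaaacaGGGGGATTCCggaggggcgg

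The match shown begins 29 bases before the start site in *Nfkbia*, 12 bases before it in *Tnfaip3*, 39 in *Nfkb2*, 92 in *Rel* and 106 in *Nfkbie*. The *Nfkbia*, *Tnfaip3* and *Rel* matches share the letters GGAAAT. A further *Rel* match, which begins 91 bases before the start site, has the same letters as the *Tnfaip3* match shown. The matches of *Nfkb2* and *Rel* were found on both strands. *Nfkb2* holds further matches at each of its 3 start sites, among them one at chr19:46305695-46305724 that is read along the gene:
Nfkb2, plus strand: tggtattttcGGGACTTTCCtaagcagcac
A 9-letter motif, GGGNNTTTC on either strand, overlaps some of the consensus matches. It was found in the promoters of *Nfkb2*, *Nfkbia*, *Rel*, *Rela* and *Tnfaip3*, in 7 of the 10 windows, and in 4.36% of all 32851 promoters. A match describes letters in a window and does not show that a factor was bound there.

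Of the 10 genes, 6 rose in Yme1l siRNA cultures, 4 gave no call and 0 fell. Over all loci tested, 28.4% rose, 29.6% fell and 58.0% were called in either direction, so a call as such was common in this comparison. The same 6 genes had groups that did not overlap, with every Yme1l siRNA culture above every Scr culture, as did 31.9% of all loci. The median log2 difference of the 10 genes was 0.40, and that of all loci was 0.0086. The inhibitors rose in 4 of 5 cases with a median of 0.64, and the subunits in 2 of 5 cases with a median of 0.28. Each gene had between 203 and 7239 counts in a library, and an exact permutation test over 3 and 3 cultures cannot give a two-sided p below 0.1 for a single gene.

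**Figure D1:**
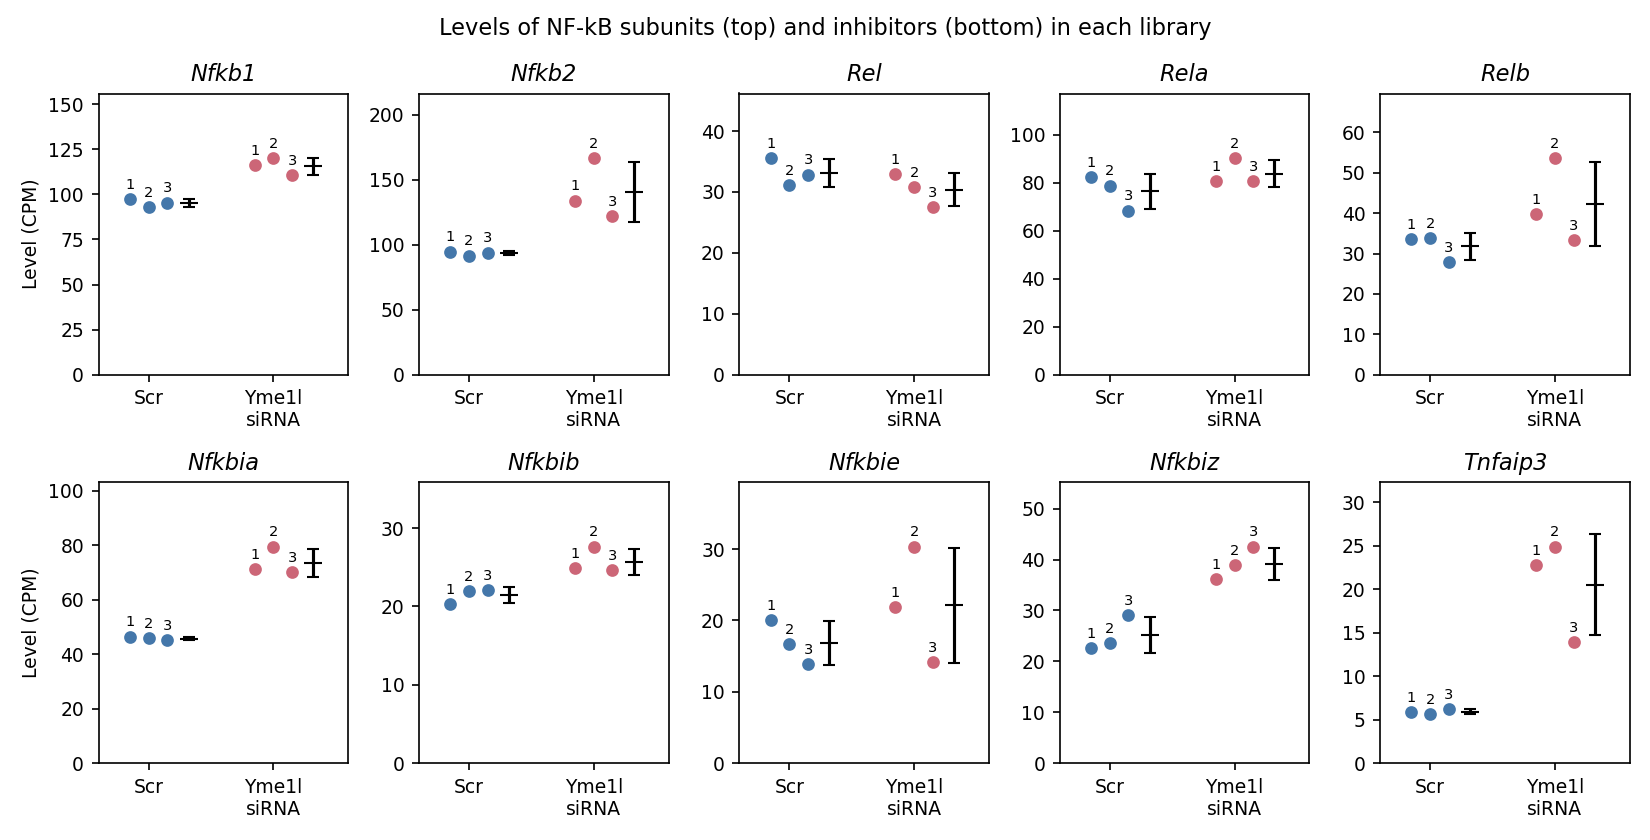
CPM of each of the 10 genes in the 6 cultures, with 1 panel per gene, a numbered point for each culture and, beside the points, the mean and SD of the 3 cultures of a group, on axes that start at 0 and differ in range. *Tnfaip3* went from 5.92 to 20.5 CPM, whereas the points of *Rel*, *Rela*, *Relb* and *Nfkbie* overlap between the groups.

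Among the inhibitors, *Tnfaip3* differed most. It encodes A20, a ubiquitin-editing enzyme that acts on signalling proteins upstream of the IκB kinase complex (locus XLOC_004759, mm10 chr10:19000910-19015657, minus strand). Scr cultures had 5.89, 5.63 and 6.23 CPM, and Yme1l siRNA cultures had 22.8, 24.9 and 13.9 CPM. All 3 Yme1l siRNA cultures were thus far above the Scr cultures, but the third was lower than the other two. The level rose 3.47-fold, a log2 difference of 1.79 (SE 0.20, 95% confidence interval 1.33 to 2.26, adjusted p = 0.000145). The difference lay between 1.64 and 2.01 when single libraries were left out.

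*Nfkbia* encodes IκBα, the IκB protein that is degraded and made again within one round of signalling (locus XLOC_010276, chr12:55489410-55492647, minus strand). It was measured at 46.4, 45.8 and 45.1 CPM in Scr cultures and at 71.1, 79.4 and 70.1 CPM in Yme1l siRNA cultures. The Scr cultures were nearly alike, and no Yme1l siRNA culture came near them. *Nfkbia* rose 1.61-fold, a log2 difference of 0.68 (SE 0.070, interval 0.52 to 0.84, adjusted p = 8.49e-05), which is the smallest adjusted p of the 10 genes.

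*Nfkbiz* encodes IκBζ, an atypical IκB protein of the nucleus that modulates a subset of NF-κB target genes (locus XLOC_018504, chr16:55811375-55838899, minus strand). Scr cultures had 22.6, 23.6 and 29.1 CPM, and Yme1l siRNA cultures had 36.1, 38.9 and 42.5 CPM. The groups were separate although the third Scr culture was above the other two. *Nfkbiz* rose 1.56-fold, a log2 difference of 0.64 (SE 0.11, interval 0.39 to 0.89, adjusted p = 0.00126).

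*Nfkbib* encodes IκBβ, which is degraded more slowly than IκBα (locus XLOC_040457, chr7:28758251-28767512, minus strand). Its levels were 20.3, 22.0 and 22.1 CPM in Scr cultures and 24.9, 27.6 and 24.6 CPM in Yme1l siRNA cultures. The groups did not overlap, but the step between them was small. *Nfkbib* rose 1.20-fold, a log2 difference of 0.26 (SE 0.081, adjusted p = 0.0213), and this call was lost without Scr replicate 1 (0.22, adjusted p = 0.0937), Scr replicate 2 (0.27, adjusted p = 0.0525) or Yme1l siRNA replicate 2 (0.22, adjusted p = 0.0522). Its exons overlap those of *Ccer2* on the other strand over 314 bases and those of *Sirt2* over 42 bases, and whether the counting used the strand is not given in the sources used here. *Ccer2* had at most 1 count in a library, and *Sirt2* had between 1897 and 2797 where *Nfkbib* had between 792 and 1200.

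*Nfkbie* encodes IκBε, a further IκB protein of the cytosol (locus XLOC_019294, chr17:45555703-45563169, plus strand). It was measured at 20.0, 16.7 and 13.9 CPM in Scr cultures and at 21.9, 30.3 and 14.1 CPM in Yme1l siRNA cultures. These groups overlap, and the third Yme1l siRNA culture lies within the range of the Scr cultures. The log2 difference was 0.39 (SE 0.25, interval -0.18 to 0.96, adjusted p = 0.21), so that neither no difference nor a rise as large as that of *Nfkbia* lies outside its interval. The value rests on single libraries, since it was 0.63 without Yme1l siRNA replicate 3 (adjusted p = 0.0135), 0.10 without Yme1l siRNA replicate 2 (adjusted p = 0.699) and 0.26 without Scr replicate 3 (adjusted p = 0.457).

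Of the subunit genes, *Nfkb2* and *Nfkb1* rose. *Nfkb2*, whose product is cut to the DNA-binding subunit of the non-canonical pathway and acts as an inhibitor before that (locus XLOC_021668, chr19:46304320-46312385, plus strand), had 94.6, 91.6 and 94.0 CPM in Scr cultures and 134, 166.5 and 122 CPM in Yme1l siRNA cultures. The Scr cultures were close to each other, and the Yme1l siRNA cultures were all higher and more spread. *Nfkb2* rose 1.51-fold, a log2 difference of 0.59 (SE 0.11, interval 0.34 to 0.85, adjusted p = 0.00194). On the other strand its exons overlap those of *Psd* over 299 bases, which had between 203 and 421 counts in a library where *Nfkb2* had between 3306 and 7239, and those of a long noncoding RNA over 531 bases.

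*Nfkb1*, whose product is cut to the DNA-binding subunit of the canonical pathway (locus XLOC_028575, chr3:135584655-135691547, minus strand), had 97.3, 93.0 and 95.5 CPM in Scr cultures and 116, 120 and 110.7 CPM in Yme1l siRNA cultures. The groups were separate and both were narrow. *Nfkb1* rose 1.22-fold, a log2 difference of 0.28 (SE 0.066, interval 0.13 to 0.43, adjusted p = 0.00631).

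*Relb*, the partner of the *Nfkb2* product (locus XLOC_040254, chr7:19606217-19629438, minus strand), had 33.5, 33.8 and 27.9 CPM in Scr cultures and 39.8, 53.6 and 33.3 CPM in Yme1l siRNA cultures. The groups overlap, since the third Yme1l siRNA culture was just below the first 2 Scr cultures. The log2 difference was 0.41 (SE 0.16, interval 0.04 to 0.78, adjusted p = 0.0571), just outside the threshold. *Relb* was called with DESeq2 (0.42, adjusted p = 0.0175), with every locus of at least 1 count kept (0.40, adjusted p = 0.0208), without scale factors (0.48, adjusted p = 0.0302) and without Yme1l siRNA replicate 3 (0.55, adjusted p = 0.00741). It was not called with limma-voom (0.39, adjusted p = 0.0734) or without any other single library, where the lowest value was 0.21 without Yme1l siRNA replicate 2 (adjusted p = 0.159) and the next 0.32 without Scr replicate 3 (adjusted p = 0.172).

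*Rela* and *Rel* encode the subunits with a transactivation domain that pair with the *Nfkb1* product. *Rela* (locus XLOC_021284, chr19:5637483-5648130, plus strand) had 82.3, 78.7 and 68.2 CPM in Scr cultures and 80.6, 90.1 and 80.5 CPM in Yme1l siRNA cultures. *Rel* (locus XLOC_007472, chr11:23736847-23770970, minus strand) had 35.5, 31.1 and 32.8 CPM in Scr cultures and 32.9, 30.8 and 27.5 CPM in Yme1l siRNA cultures. In both genes the groups overlap. The log2 difference of *Rela* was 0.13 (SE 0.089, interval -0.07 to 0.34, adjusted p = 0.235), and that of *Rel* was -0.12 (SE 0.090, interval -0.33 to 0.08, adjusted p = 0.262). Both intervals lie below the log2 difference of 0.59 found for *Nfkb2*.

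**Figure D2:**
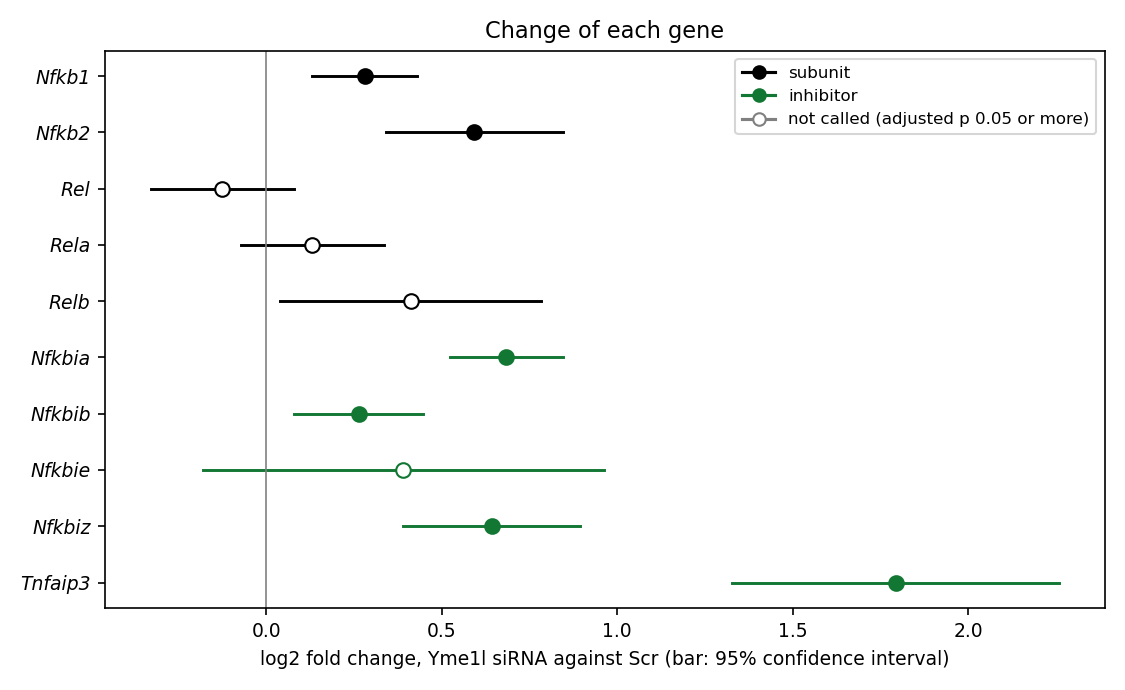
Log2 difference of Yme1l siRNA against Scr siRNA for each of the 10 genes, with points for the edgeR estimate, bars for the 95% confidence interval, black for subunits, green for inhibitors and open points for genes without a call. *Tnfaip3* stands at 1.79, and the intervals of *Rel*, *Rela* and *Nfkbie* cross 0.

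The promoter stretches shown above can be set beside these values. Of the 5 genes with a consensus match, *Nfkbia*, *Tnfaip3* and *Nfkb2* rose, and *Rel* and *Nfkbie* gave no call. The promoters of *Nfkbib*, which rose, and of *Rela*, which gave no call, held no consensus match, and that of *Rela* held the 9-letter motif. The letters of the *Nfkbia* and *Tnfaip3* matches are close to each other, whereas the log2 differences of these genes were 0.68 and 1.79. *Rel*, which holds a match with the same letters as that of *Tnfaip3*, had a log2 difference of -0.12.

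The order of the cultures was read for the 10 genes only. Among the Yme1l siRNA cultures, replicate 2 was the highest for 8 of the 10 genes, all but *Rel* and *Nfkbiz*, and replicate 3 was the lowest for 9, all but *Nfkbiz*. How many of all loci share this order was not counted, so whether it is particular to these genes is not known. The remaining level of *Yme1l1* was lowest in replicate 2 at 23.4 CPM and highest in replicate 3 at 45.0 CPM. *Ifnb1*, the gene of interferon β, had 37, 60 and 11 counts in these 3 cultures and 3, 1 and 0 in the Scr cultures. With 3 cultures no relation between these measures can be tested.

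Set against the mean of the Scr cultures, *Tnfaip3* was higher by 1.95, 2.07 and 1.23 log2 units in the 3 Yme1l siRNA cultures, *Nfkb2* by 0.52, 0.83 and 0.39, and *Relb* by 0.33, 0.75 and 0.07. *Nfkbie* was higher by 0.37 and 0.85 in the first 2 cultures and lower in the third, at -0.25. *Nfkbia* was more even, at 0.64, 0.80 and 0.61, and *Nfkbiz* had its highest value in the third culture, at 0.76. Between cultures of 1 group, the coefficient of variation of *Tnfaip3* was 5.14% in Scr and 28.4% in Yme1l siRNA cultures, that of *Nfkb2* 1.69% and 16.3%, and that of *Relb* 10.5% and 24.5%. *Nfkbiz* and *Rela* had the smaller spread in Yme1l siRNA cultures, at 8.13% after 14.0% and 6.59% after 9.58%. The cause of this spread was not tested.

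To compare the genes with each other, CPM were divided by the length of the merged exons in GENCODE M21. On this scale *Nfkbia* had the highest level in Scr cultures, at 28.4 ± 0.404 CPM per kb, and *Tnfaip3* the lowest, at 0.819 ± 0.0421 CPM per kb. *Rela* at 24.9 ± 2.38 and *Nfkb2* at 20.4 ± 0.344 CPM per kb came next to *Nfkbia*. *Nfkbib* followed at 9.88 ± 0.460 CPM per kb. The neighbours *Relb* (8.17 ± 0.855) and *Nfkb1* (7.90 ± 0.181) overlapped in their cultures, as did *Nfkbie* (5.54 ± 1.01), *Nfkbiz* (5.004 ± 0.701) and *Rel* (4.44 ± 0.300), each with the next.

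In Yme1l siRNA cultures *Nfkbia* was again the highest, at 45.7 ± 3.17 CPM per kb, and *Tnfaip3* the lowest, at 2.84 ± 0.806 CPM per kb. *Nfkb2* (30.7 ± 5.01) and *Rela* (27.3 ± 1.80) overlapped, whereas in Scr cultures *Rela* was above *Nfkb2* in level. Of the summed level of the 5 subunit genes, *Nfkb2* made up 31.0 ± 1.66% in Scr and 37.1 ± 1.54% in Yme1l siRNA cultures, and *Rela* 37.8 ± 1.80% and 33.2 ± 1.97%. Among the inhibitors, *Nfkbia* made up 57.2% and 60.6% of the summed level and *Tnfaip3* 1.65% and 3.73%.

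These levels depend on the length used, since *Nfkb1* made up 12.0% of the subunit level in Scr cultures with merged exons and 25.7% with the longest transcript. The summed level of the inhibitors was 50.1, 49.5 and 49.4 CPM per kb in Scr cultures and 73.2, 83.2 and 69.9 CPM per kb in Yme1l siRNA cultures. That of the subunits was 68.9, 66.2 and 62.2 CPM per kb and 79.8, 93.5 and 74.3 CPM per kb. The inhibitor level relative to the subunit level was therefore 0.727, 0.748 and 0.794 in Scr cultures and 0.918, 0.890 and 0.942 in Yme1l siRNA cultures. Both sums and their ratio were higher in every Yme1l siRNA culture, and as sums over chosen genes they were not tested.

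Other genes of the pathway were read from lists of known members. These were chosen by role in the pathway, with earlier results of these data known, so their counts are no independent support. Of 9 genes of ligands that activate the receptors, only 2 had enough counts to be tested. *Tnf* had 1, 1 and 0 counts in Scr cultures and 2, 2 and 1 in Yme1l siRNA cultures, and *Il1b* had 0 counts in all libraries. RNA of these cytokines was thus not detectable above a few counts at this depth in either group. *Tnfsf12*, the gene of the ligand TWEAK, is counted in a locus joined with *Tnfsf13* and *Tnfsfm13*, which went from 30.1 to 14.8 CPM, a fall by 1.03 on the log2 scale (SE 0.096, adjusted p = 5.28e-05). *Tnfsf13b*, the gene of the B cell factor BAFF, was just past the threshold (1.76, SE 0.67, adjusted p = 0.0499), with 5, 9 and 6 counts in Scr cultures and overlapping groups.

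Of 11 receptor genes tested, 6 rose, 2 fell and 3 gave no call, with a median log2 difference of 0.66. Over all loci 28.4% rose and 29.6% fell. *Tnfrsf11a*, among the 6 and named after its values were seen, had 9, 4 and 4 counts in Scr cultures and 22, 31 and 20 in Yme1l siRNA cultures. It passed the filter on low counts only through the Yme1l siRNA cultures, so its call is not read as support. *Tlr2*, the receptor of bacterial lipopeptides, rose from 78.2 to 170 CPM (log2 difference 1.12, SE 0.13, adjusted p = 0.000148). *Tnfrsf12a*, the receptor of TWEAK, rose from 173 to 342 CPM (0.98, SE 0.17, adjusted p = 0.00148). The main TNF receptor gene *Tnfrsf1a* fell from 207 to 142 CPM (-0.55, SE 0.083, adjusted p = 0.000677), and *Tlr4*, the receptor of lipopolysaccharide, from 69.7 to 46.3 CPM (-0.59, SE 0.099, adjusted p = 0.00111).

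The genes of adaptors and kinases link receptors to IκB. Of 25 tested, 9 rose, 4 fell and 12 gave no call, with a median log2 difference of 0.10, where 28.4% of all loci rose and 29.6% fell. *Rnf31*, among the 9, is counted in a locus that joins 2 gene names. *Chuk*, which encodes the IκB kinase subunit IKKα, rose from 56.3 to 83.3 CPM (0.57, SE 0.075, adjusted p = 0.000312). *Irak4*, a kinase of interleukin 1 and Toll-like receptor signalling, fell from 43.0 to 21.2 CPM (-1.02, SE 0.11, adjusted p = 8.67e-05). *Ripk1* (-0.49, SE 0.068, adjusted p = 0.000408) and *Tradd* (-0.58, SE 0.088, adjusted p = 0.000636), which act at the TNF receptor, also fell.

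Of 14 inhibitors tested outside the 10 genes, 4 rose, 5 fell and 5 gave no call, with a median log2 difference of -0.25. These counts are near the 28.4% and 29.6% of all loci that rose and fell. *Commd1*, among the 4 that rose, is counted in a locus that joins 4 gene names. *Tnip3*, whose product binds A20, rose from 0.325 to 1.70 CPM (2.39, SE 0.41, adjusted p = 0.00132). It had 17, 15 and 7 counts in Scr cultures and 66, 107 and 48 in Yme1l siRNA cultures. The Scr cultures alone would not have passed it through the filter on low counts, so its call is not read as support. *Tax1bp1* (-0.58, SE 0.084, adjusted p = 0.000498) and *Itch* (-0.39, SE 0.090, adjusted p = 0.00594), whose products work with A20, fell, and so did *Zc3h12a* (-0.45, SE 0.11, adjusted p = 0.0094), which encodes an RNase that degrades cytokine RNA.

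Known NF-κB target genes were read as the pathway's output, though their induction by other signals was not tested. Of 22 tested, 16 rose, 1 fell and 5 gave no call, with a median log2 difference of 0.62, beside 28.4% of all loci that rose and a median of 0.0086. *Ptgs2*, the gene of the inducible cyclooxygenase, rose from 9.24 ± 0.506 to 58.4 ± 8.60 CPM (2.66, SE 0.12, adjusted p = 3.6e-06). The growth factor gene *Csf1* rose from 205 to 485 CPM (1.25, SE 0.14, adjusted p = 0.000154), the stress gene *Ier3* from 19.6 to 41.7 CPM (1.09, SE 0.14, adjusted p = 0.000225) and the cytokine gene *Lif* from 40.3 to 59.1 CPM (0.55, SE 0.073, adjusted p = 0.000317). The gene that fell was *Bcl2l1* (-0.30, adjusted p = 0.00662), which encodes a survival factor. *C3* (0.53, adjusted p = 0.163), *Birc3* (0.28, adjusted p = 0.258) and *Tnfaip2* (0.07, adjusted p = 0.406) gave no call. *Mmp3* (-0.43, adjusted p = 0.628) and *Cxcl5* (-1.02, adjusted p = 0.182) gave none either. *Bcl2l1*, these 5 genes, *Icam1*, *Il6* and *Ccl20* were named after their values were seen. *Icam1*, an adhesion molecule, had 2, 0 and 2 counts in Scr cultures and 47, 65 and 15 in Yme1l siRNA cultures, at least 13.0-fold higher against 3 counts per library. It passed the filter on low counts only through the Yme1l siRNA cultures. So did *Il6*, with 3, 1 and 5 counts in Scr cultures and 37, 36 and 18 in Yme1l siRNA cultures. Both are among the 16 that rose, and neither call is read as support. *Ccl20*, a chemokine gene that did not pass the filter on low counts, had 0 counts in every Scr culture and 5, 13 and 6 in Yme1l siRNA cultures, at least 2.48-fold higher against the same floor.

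Targets listed as shared by NF-κB and interferon signalling were set apart, since both pathways induce them. Whether interferon or other signals also induce the remaining targets was not tested, so the lists do not separate the pathways. All 6 tested rose, with a median log2 difference of 1.83, beside 28.4% of all loci that rose and a median of 0.0086. The groups of *Tap1* overlapped, with 25.6 CPM in Scr replicate 1 and 24.6 CPM in Yme1l siRNA replicate 3. *Cxcl10*, a chemokine gene, rose from 25.0 to 205 CPM (3.04, SE 0.32, adjusted p = 9.46e-05), and *Ccl5*, a further chemokine gene, from 40.1 to 177 CPM (2.14, SE 0.35, adjusted p = 0.00101). *Irf1*, an interferon-responsive transcription factor gene, rose from 63.0 to 91.3 CPM (0.54, SE 0.14, adjusted p = 0.00984). *Ifnb1* was at least 11.1-fold higher against 3 counts per library. It passed the filter on low counts only through the Yme1l siRNA cultures, so its call is not read as support. The medians of the target lists are the same with *Icam1* and *Ifnb1* at their bounds. Which part of any target's change belongs to NF-κB was not tested.

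**Figure D3:**
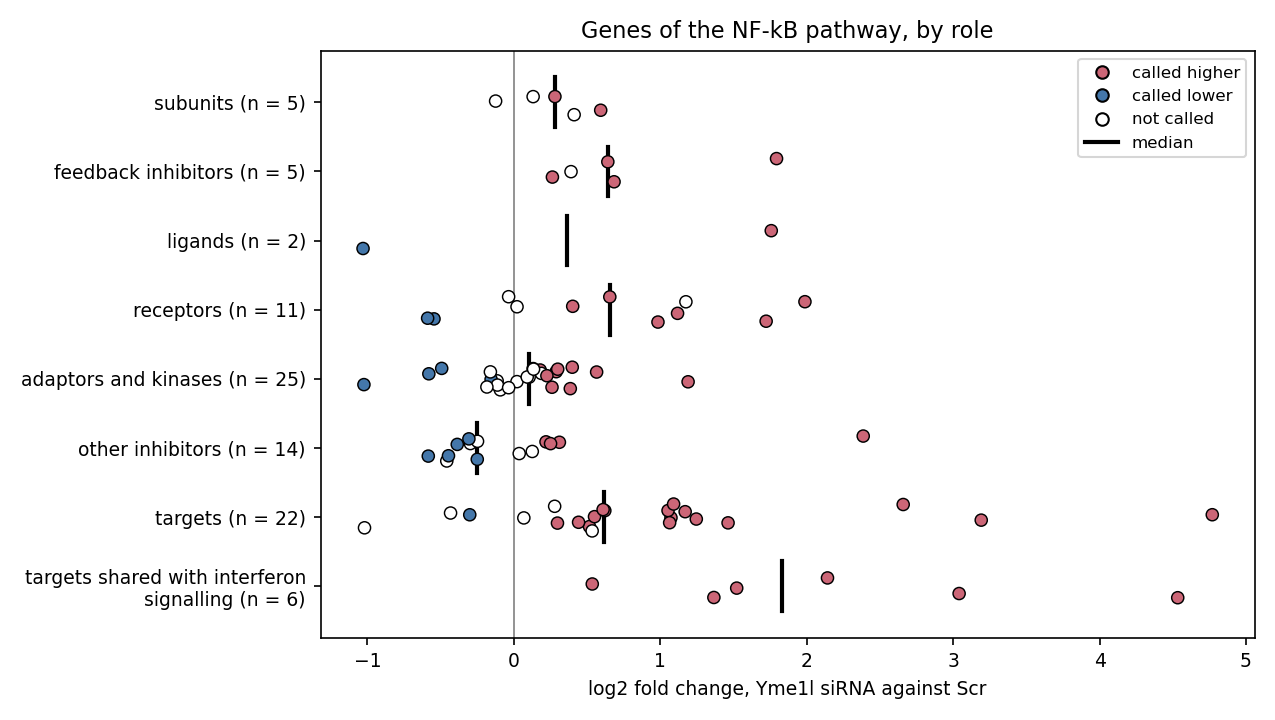
Log2 difference of Yme1l siRNA against Scr siRNA for the tested genes of each pathway list, with a point per gene (red for rose, blue for fell, open for no call, spread vertically at random), a bar for the median of the list and a thin line at 0. The fitted values of *Icam1* and *Ifnb1*, near 0 counts in Scr cultures, depend on the prior count, and the list medians run from -0.25 for other inhibitors to 1.83 for targets shared with interferon signalling.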

How the data were processed

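RNA-Seq libraries of WT MEFs were compared, 3 transfected with Scr siRNA and 3 with Yme1l siRNA for 72 h. Groups came from the sample labels, and nothing was left unmapped. The reads came from stranded poly(A)-selected paired-end libraries. The authors mapped them to mm10 (submitters' processing notes: HISAT2 2.0.4, StringTie 1.3.3, Cuffdiff 2.2.1) and deposited raw counts per locus, without normalization. The counting program, its use of the strand and its treatment of reads with several matches are not given in the sources used here. The authors' second table holds group FPKM values, fold changes and p-values and was not used. Of the loci tested, 398 join several gene names, none of them one of the 10 genes.

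Counts were tested with edgeR 4.0.16 in R 4.3.3 (TMM factors, filterByExpr with a minimum of 10 counts and 15 in total, quasi-likelihood test without covariates, Benjamini-Hochberg adjustment, threshold 0.05). The SE is the log2 difference divided by the square root of F. The biological coefficient of variation was 0.131. No library repeats another, since replicates differed beyond counting error (chi-square per degree of freedom 9.99 to 73.8). The labels call the libraries replicates of a group, and p-values measure the spread between them. Alternatives were DESeq2 1.42.0, voom in limma 3.58.1, other scale factors, filters and thresholds, a replicate block and leaving out each library. Exon lengths and positions came from GENCODE M21 (GRCm38, the build of the counts), promoters from RefSeq GRCm38.p6. Genes named by rule were the 10 members, *Yme1l1* and up to 4 genes per pathway list with the smallest adjusted p, and some others were named after their values were seen. The members, lists and tests were chosen with earlier results of these data known. On simulated counts for this comparison (14499 genes, 200 changed 2-fold), edgeR recovered 191 (95.5%) with 8 false calls. In the data 58.0% of loci were called and most of the 10 genes differed by less than 2-fold, so these figures do not carry over to them. Python 3.11.15 with pandas 2.3.3, numpy 2.4.6 and matplotlib 3.10.9 made the tables and figures.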

Additional observations from a re-analysis of the deposited data

How the results depend on the processing

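Between 5 and 8 of the 10 genes rose under the alternatives and 0 fell under any of them, with a median log2 difference between 0.24 and 0.57. Over all loci, 2949 to 4589 rose and 3225 to 4460 fell. *Nfkb1*, *Nfkb2*, *Nfkbia*, *Nfkbiz* and *Tnfaip3* kept their calls under all 16 alternatives, and *Rel* and *Rela* gained none. Of the values of the 10 genes under each alternative, 150 kept their side of the threshold, 6 gained a call, 4 lost one and 0 changed sign with a call. *Nfkbib* lost its call at a threshold of 0.01 and without each of the 3 libraries named above. *Relb* and *Nfkbie* gained one without Yme1l siRNA replicate 3. *Tnfsf13b* lost its call under 7 alternatives. Scale factors shifted the median of all loci by at most 0.064 on the log2 scale, without scale factors, where 4589 loci rose and 3696 fell.

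The replicate numbers are shared between the groups, but the labels give them no common day or batch. Deviations of libraries with the same number correlated at 0.041, 0.12 and 0.19. Every library except Scr replicate 1 correlated best with the library of its own number in the other group. With the replicate number as a block, 7 of the 10 genes rose and 0 fell, *Relb* being added (0.39, adjusted p = 0.00997), and 4227 loci rose and 4460 fell.

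In the pathway lists, a threshold of 0.01 left 5 adaptors and kinases, 0 ligands and 1 other inhibitor that rose and 3 other inhibitors that fell. 0 ligands also rose with limma-voom and with a mean of at least 50 counts, where the medians were -0.997 for ligands, then 1 gene, and 0.43 for receptors. Without scale factors the medians were 0.17 for adaptors and kinases and -0.18 for other inhibitors, of which 3 fell. Leaving out single libraries gave 0 to 1 ligand that rose with a median of -0.12 to 0.58, 1 to 4 other inhibitors that rose and 3 to 7 that fell with a median of -0.26 to -0.18, and 11 to 16 targets that rose and 1 to 2 that fell. The 16 targets that rose were 11 at a threshold of 0.01 and without Scr replicate 3, and 17 with every locus of at least 1 count kept. Of all loci, 2949 of 14499 tested rose at a threshold of 0.01 and 3829 of 14836 without Scr replicate 3. With every locus of at least 1 count kept, 4258 of 23825 rose. When single libraries were left out, 3451 to 4133 of all loci rose and 3616 to 4312 fell. With the longest transcript as length, the shares of class level in Scr cultures were 25.7% for *Nfkb1*, 27.2% for *Nfkb2*, 4.96% for *Rel*, 31.4% for *Rela*, 10.8% for *Relb*, 55.7% for *Nfkbia*, 11.7% for *Nfkbiz* and 1.83% for *Tnfaip3*. Apart from the lengths, thresholds and filters themselves, the cause of these shifts was not tested. *Ccl20*, *Cxcl2* and *Tnf* did not pass the filter on low counts and entered only the test that kept every locus of at least 1 count.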
